A study of Gallus gallus with 12 samples.

Results

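The far end of chicken chromosome Z, taken as all peaks with a start at or above 73000000 on galGal4, was examined in 6 lists of methylation-enriched regions from liver. The stretch held 11466 of the 356324 peaks in the 6 lists and ran to the last peak end at 82363454, a length of 9.36 Mb. Peaks were found by methylated DNA immunoprecipitation and sequencing (MeDIP-seq), in which an antibody against methylated cytosine pulls down genomic fragments, and each library was called against input DNA of the same sample number. The libraries came from livers of birds recorded as ALV-J-resistant (libraries 26, 3 and 4, which are resistant replicates 3, 1 and 2) and as ALV-J-susceptible (libraries 14, 8 and 9, which are susceptible replicates 3, 1 and 2). ALV-J, avian leukosis virus subgroup J, is a retrovirus of chickens. The labels give liver as the tissue and resistance status as the only condition, and name no breed, age, sex or challenge with the virus. They do not say outright that each number is a separate bird, so p-values measure the spread between these libraries, which may be technical.

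The stretch was chosen because its peak cover was known to be high and to differ between libraries 26 and 14 and the other 4 libraries. Levels of cover, and the ratio of libraries 26 and 14 to libraries 3, 4, 8 and 9, are therefore given as a description with no test.

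In birds the male carries a pair of Z chromosomes and the female carries 1 Z and 1 W. Z and W differ over most of their length and pair in female meiosis over a short shared segment, the pseudoautosomal region, whose position on galGal4 was not looked up here. The distal long arm of chicken Z is known for heterochromatin and for long tandem arrays, among them an amplified array that carries gene families expressed in testis. MeDIP recovers DNA according to how many methylated CpGs a fragment holds, so a dense run of methylated CpGs gives wide and high-scoring peaks. In a tandem array, reads from near-identical copies cannot be placed with certainty, and how such reads were treated is not given in the sources used here. Genes, repeats, CpG content and base sequence of the stretch were not analysed here, since no genome or annotation of galGal4 was used.

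Libraries 26 and 14 stood apart from the other 4 on both sex chromosomes. On W, peaks covered 62.7 kb in library 26 and 66.5 kb in library 14, against 223 to 236 kb in libraries 3, 4, 8 and 9. Outside Z and W the covered length was 40139 kb in library 26 and 41479.5 kb in library 14, within the 38097 to 42389.6 kb of the others. Sequencing depth is unknown for all 6. The part of W content, sex or depth in the differences below was not tested.

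Distal Z was far more densely covered than the rest of Z in every library. Peaks covered 3208 kb in library 26 and 3364 kb in library 14, against 1532, 1571, 1486 and 1564 kb in libraries 3, 4, 8 and 9. This was 34.3% and 35.9% of the stretch in libraries 26 and 14, and 15.9 to 16.8% of it in the other 4. On Z before 73 Mb, leaving out the window from 27 to 28 Mb, peaks covered 2.70% in library 26 and 2.84% in library 14, against 1.34 to 1.44% in the others. The stretch accounted for 7.04% and 7.14% of everything covered in libraries 26 and 14, and for 3.40 to 3.64% in the others.

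The higher cover of libraries 26 and 14 came with more peaks and with wider peaks. Distal Z held 2397 peaks in library 26 and 2452 in library 14, against 1657, 1716, 1579 and 1665 in libraries 3, 4, 8 and 9. Mean width was 1338 and 1372 bp in libraries 26 and 14, against 916 to 941 bp in the others. For the lower of libraries 26 and 14 over the highest of the other 4, the ratio was 2.04 for covered length, 1.397 for peak number and 1.42 for mean width. Within the label groups, library 26 had 2.04 to 2.09 times the cover of libraries 4 and 3, and library 14 had 2.15 to 2.26 times the cover of libraries 9 and 8. On the rest of Z the corresponding ratio was 1.88 for covered length, 1.70 for peak number and 1.07 for mean width. Outside Z and W the ratio of mean width was 1.09, close to that of the rest of Z, so the larger excess in width was on distal Z. Among the parts of distal Z described below, it was 1.55 and 1.57 in the first and second dense blocks. In the other parts the ratio of mean width was 0.734 to 1.19. This contrast was not tested. When peaks up to 500 bp apart were joined, the ratio of peak number on distal Z was 1.051 and that of covered length 2.053.

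Cover along the stretch alternated between dense and sparse parts in all 6 libraries. Their borders, all at multiples of 100 kb, were read off the profile after it was seen. In the last window before 73 Mb, cover was 5.45 kb per 100 kb in library 26 and 6.99 kb in library 14, against 1.61 to 2.03 kb in the others (72900001 to 73000000). From 73000001 to 73100000 it was 2.57 and 2.58 kb in libraries 26 and 14, against 3.13 to 3.50 kb. These values include bases of peaks that start before 73 Mb. Peaks of library 8 that start past it covered 2.07 kb here, less than the 2.57 kb of library 26, which had no peak across the border. Nothing is therefore read from the order in this window. In the next 100 kb cover was 0.980 and 1.27 kb in libraries 26 and 14, and 0 in each of the others. Dense cover began only at 73200001, with 41.6 and 41.1 kb per 100 kb in libraries 26 and 14, against 11.8 to 15.2 kb.

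**Figure D1:**
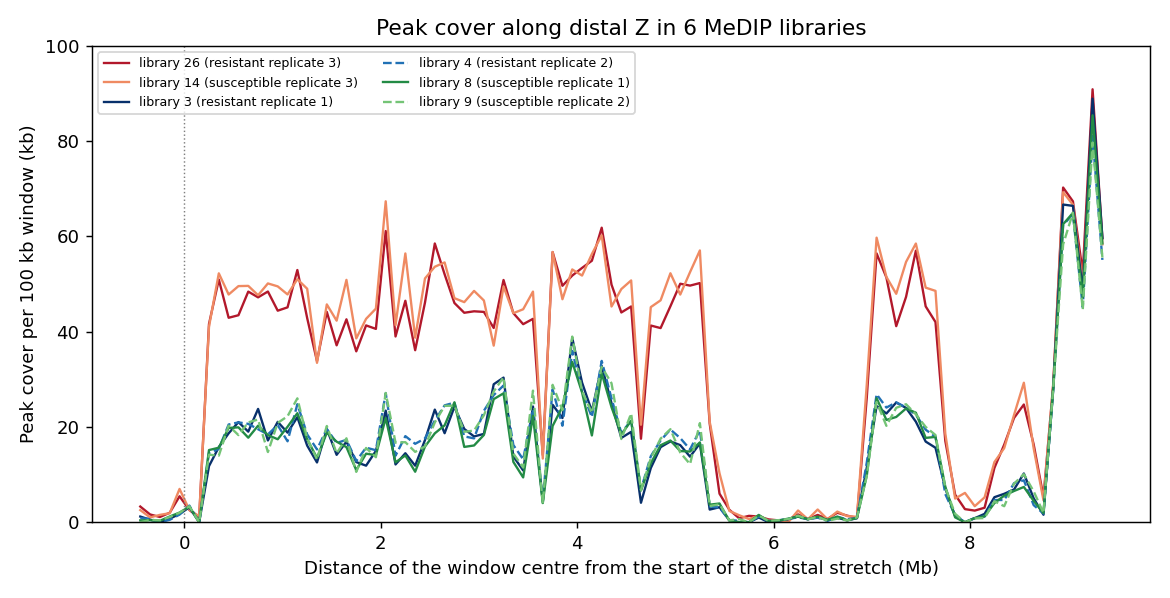
Peak cover (kb) in consecutive 100 kb windows against distance of the window centre from 73 Mb, 1 line per library, with libraries 26 and 14 in red and orange and libraries 3, 4, 8 and 9 in blue and green. Libraries 26 and 14 ran above the others in the 2 dense blocks, and all 6 lines met at the tip, where the last window is cut short by the last peak.

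The first dense block, from 73.2 to 78.4 Mb, held most of the cover. Peaks covered 2319 kb of it in library 26 and 2436 kb in library 14, against 952, 1006, 921 and 1006 kb in libraries 3, 4, 8 and 9. That is 44.6% and 46.8% of the block, against 17.7 to 19.3%. Median gaps between neighbouring peaks were 527 and 490 bp in libraries 26 and 14, against 1653 to 1994 bp. Peaks of at least 2 kb made up 17.3% and 18.6% of the peaks in libraries 26 and 14, against 2.16 to 3.24% in the others. Both high libraries were above all 4 others in each of the 52 windows of the block. The share was 69.7% of windows on the rest of Z and 12.2% of all windows of the genome with a peak. Cover dipped in all 6 libraries at a pair of places inside the block and at its end. Between 76600001 and 76700000 it was 14.1 and 13.4 kb in libraries 26 and 14, against 3.92 to 4.62 kb. Between 77600001 and 77700000 it was 17.5 and 20.5 kb, against 4.09 to 6.88 kb. The last window of the block, from 78300001, had 20.7 and 21.1 kb in libraries 26 and 14, against 2.66 to 3.69 kb.

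A sparse stretch followed from 78.4 to 79.9 Mb. Peaks covered 22.3 kb of its 1.5 Mb in library 26 and 27.9 kb in library 14, against 11.1, 11.8, 13.1 and 13.2 kb in libraries 3, 4, 8 and 9. No peak there reached 2 kb in any library. Libraries 26 and 14 were both above the other 4 in 10 of its 15 windows (66.7%), near the 69.7% of 670 windows on the rest of Z. From 79100001 to 79200000, library 26 had 0.482 kb and library 14 had 0 kb, against 0.643 to 0.757 kb in the others.

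The second dense block, from 79.9 to 80.8 Mb, resembled the first in its values. Peaks covered 384 and 418 kb in libraries 26 and 14, or 42.7% and 46.4% of it, against 169 to 179 kb, or 18.7 to 19.8%, in the others. Beyond it lay a stretch of intermediate cover from 80.8 to 81.8 Mb, with 109.97 and 119.8 kb in libraries 26 and 14, against 33.1 to 38.8 kb. Its ratio was 2.83, the highest of the parts, and peak number differed more (138 and 152 peaks, against 52 to 62, a ratio of 2.23) than mean width (797 and 788 bp, against 626 to 664 bp, a ratio of 1.19). Its window from 80900001 to 81000000 had 2.75 kb in 5 peaks in library 26 and 6.16 kb in 11 peaks in library 14, and no peak in the other 4.

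The tip of the chromosome, from 81.8 Mb to the last peak, differed from all of this. Peaks covered 369.5 kb of its 0.563 Mb in library 26 and 359.9 kb in library 14, against 359, 336, 347 and 332 kb in libraries 3, 4, 8 and 9. All 6 libraries thus lay between 58.9% and 65.6% cover, and the lower of libraries 26 and 14 was 1.003 times the highest of the others. Measured per Mb covered outside Z and W in the same list, that ratio was 0.953. Taken pair by pair, the tip ratio was 1.003 to 1.11 (median 1.07), against 0.947 to 1.09 (median 0.983) outside Z and W. Libraries 26 and 14 were both above the other 4 in 4 of the 6 tip windows (66.7%). The share was 69.7% on the rest of Z and 6.94% outside Z and W. They were set apart by Z cover, so nothing is read from this count. The libraries high elsewhere on Z did not have more peaks here, with 95 in library 26 and 123 in library 14, against 131, 146, 124 and 144. Peaks were wide in every library, with medians of 2866 and 2298 bp in libraries 26 and 14, against 1747 to 2188.5 bp, and the median gap was 167 to 189 bp in all 6. The tip was 6.02% of the stretch by length. It held 11.5% and 10.7% of the stretch's cover in libraries 26 and 14, and 21.2 to 23.4% in the others. Without the tip, the ratio of covered length over distal Z was 2.30.

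The 5 windows with the highest median cover over the 6 libraries all lay in the tip. The highest in kb, from 82200001 to 82300000, was covered for 90.9 and 86.3 kb in libraries 26 and 14, against 88.9, 81.1, 85.4 and 79.7 kb in libraries 3, 4, 8 and 9. By median cover it stood above 99.99% of the 9559 windows of the genome that held any peak. The last window, from 82300001, is cut short at 82363454. It had 59.6 and 58.3 kb in libraries 26 and 14, against 55.1 to 59.7 kb. Windows were ranked by kb, which places this shorter window lower than its share covered would. The windows of the first dense block had a median rank above 94.2% of these windows, and those of the sparse stretch above 26.3%. At the other extreme were 3 windows with a median of 0 kb, which start at 73100001, 78700001 and 80900001, and in each of them only libraries 26 and 14 had peaks. Next came the windows from 78900001, with a median of 0.252 kb, and from 79000001, with 0.372 kb.

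Window by window, the ratio of libraries 26 and 14 to the others was computed where every library had at least 5 kb. Outside the tip this left 60 windows of distal Z, with a median ratio of 2.26 and a range of 1.28 to 3.25. In the 6 tip windows the ratio was 0.970 to 1.04, with a median of 1.01. Cover cannot exceed the window, which limits the ratio where the other libraries are near full cover. Library 3 covered 88.9 kb of the 100 kb from 82200001, and 59.7 kb of the last window, 82300001 to 82363454. From 81800001 to 82200000 the highest of the others was 28.5 to 66.7 kb per window, with ratios of 1.004 to 1.04. How far this limit set the tip ratios was not tested. In 1755 windows outside Z and W the median ratio was 0.896, and 99.1% of them were under 1.1. At least 2 was reached in 44 of the 60 windows of distal Z outside the tip and in none of the 1755. All 6 tip windows were under 1.1. Few windows on the rest of Z reached 5 kb in every library, and those 36 had a median of 1.45, below the 1.88 found for covered length as a whole. Of these 36 windows, 4 reached at least 2, with a highest ratio of 2.59, and 9 (25%) were under 1.1. The highest ratios were 3.25 from 78100001 to 78200000 (49.7 and 52.5 kb in libraries 26 and 14, against 12.2 to 15.3 kb), 3.23 from 73300001 to 73400000 and 3.15 from 76400001 to 76500000. The lowest were 0.970 from 82200001, 0.977 in the last window and 1.004 from 82000001. Inside the first dense block the lowest were 1.28 from 76100001 and 1.33 from 76900001, where libraries 3, 4, 8 and 9 reached 33.7 to 39.0 kb in the window from 76900001. Libraries 26 and 14 were both above the other 4 in 86 of the 94 windows of distal Z (91.5%), against 69.7% on the rest of Z and 12.2% of all windows. They were chosen on this contrast, and nothing is read from that count.

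**Figure D2:**
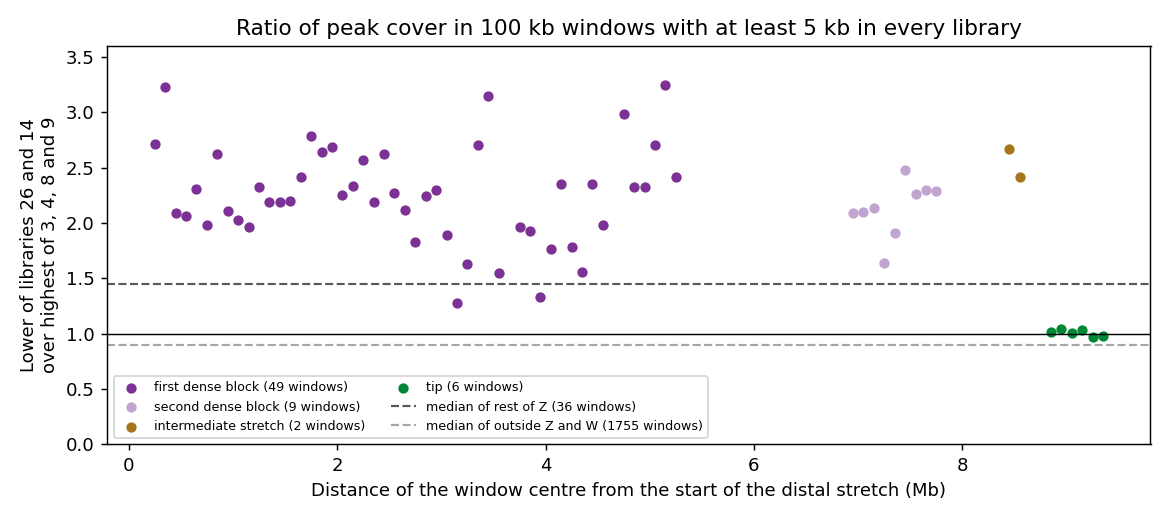
Lower cover of libraries 26 and 14 divided by the highest of libraries 3, 4, 8 and 9, in each 100 kb window with at least 5 kb in every library, against distance of the window centre from 73 Mb. Windows of the 2 dense blocks and the intermediate stretch lay between 1.28 and 3.25, and the 6 windows of the tip at 0.970 to 1.04. In the tip windows from 82200001 and 82300001, near-full cover in library 3 limits the ratio. Outside Z and W the median was 0.896 (lower dashed line) and the 90th percentile 1.01.

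Libraries 26 and 14 also differed from each other. Library 14 had the higher cover in 64 of the 94 windows, with a median of 1.049 times library 26, and it also had the higher cover outside Z and W. The order of windows by cover was alike in all libraries, with Spearman's rho from 0.844 to 0.986 over the 15 pairs of libraries. These coefficients are across 94 windows that share their sequence and are not independent.

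**Figure D3:**
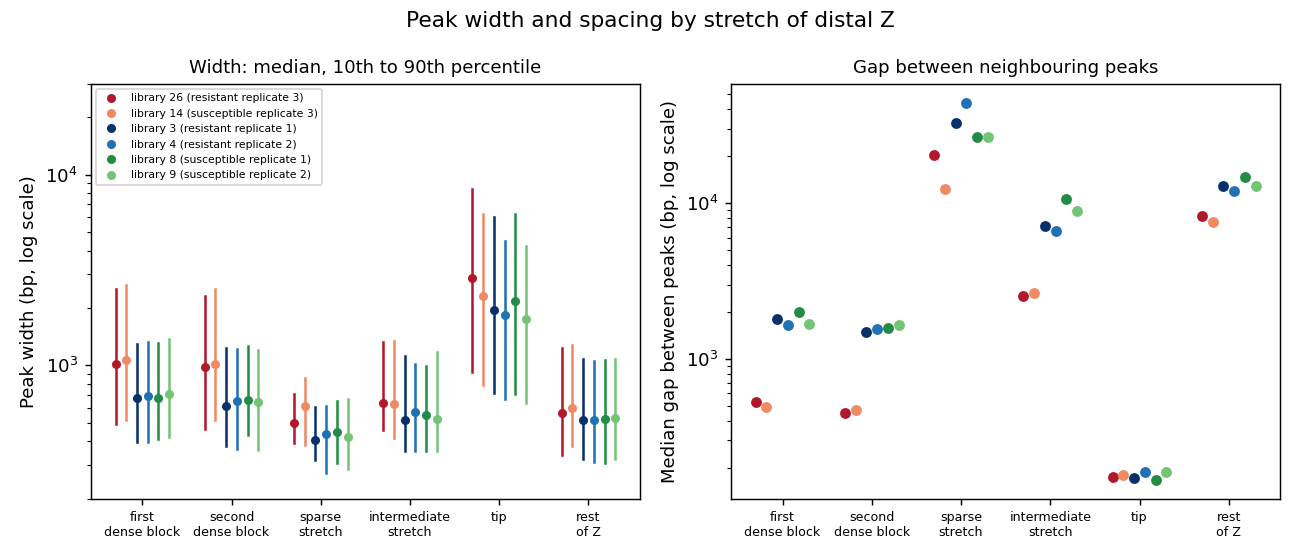
Peak width (left, median as a point and 10th to 90th percentile as a bar) and median gap between neighbouring peaks (right), both in bp on log axes, for parts of distal Z and the rest of Z in each library. In the dense blocks libraries 26 and 14 had wider peaks and shorter gaps than the others, and in the tip the gaps of all 6 libraries were 167 to 189 bp.

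Scores, which are the authors' own values and depend on depth, were compared only within each list. The median peak of distal Z stood above 78.1% of its list in library 26 and above 79.0% in library 14, against 53.9 to 55.8% in libraries 3, 4, 8 and 9. On the rest of Z the medians were 50.8% and 51.8% in libraries 26 and 14, against 51.7 to 54.5%. In the first dense block 29.5% and 30.2% of the peaks of libraries 26 and 14 were in the highest-scoring 10% of their own lists, against 5.56 to 7.16% in libraries 3, 4, 8 and 9. In the tip the shares were 74.7% and 70.7% in libraries 26 and 14, against 52.1 to 66.1%. The median tip peak stood above 91.7 to 97.1% of its own list in all 6 libraries. Scores of 3100 or above were held by 55.8% and 44.7% of tip peaks in libraries 26 and 14, against 23.6 to 47.6% in the others. Many peaks are tied at 3100, the median tip score of library 26, and tied peaks have the same rank. Ranks in the tip therefore compare the libraries only roughly.

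The peaks of the other 4 libraries were nested in those of libraries 26 and 14. Of the length covered in libraries 3, 4, 8 or 9 on distal Z, 96.4 to 98.0% was also covered in library 26 or 14, taken pair by pair. In the other direction, 43.0 to 48.0% of the length covered in library 26 or 14 was covered in 1 of the other libraries. Libraries 26 and 14 shared 90.3% of the cover of library 26 and 86.1% of that of library 14. On the rest of Z, 89.2 to 92.4% of the others' cover lay in library 26 or 14, and 43.4 to 47.5% of theirs in the others. In the tip both directions were high, at 96.2 to 98.95% and 88.7 to 95.96%. Overlap outside Z was not computed. Libraries 26 and 14 were set apart by their higher Z cover, and the share of the others' cover within theirs depends on that cover. The nesting is therefore no separate result about distal Z.

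Joining the 6 lists gave 2257 regions on distal Z, of which 895 (39.7%) had a peak in every library. A further 445 (19.7%) had a peak in libraries 26 and 14 alone, while each of the 14 other pairs of libraries had 0 to 7 such regions, 34 in all. Of 365 regions seen in a single library, 341 belonged to library 26 or 14. Regions without either of these libraries numbered 35. In the tip 57 of 67 regions were common to all 6 and none had peaks in libraries 26 and 14 alone. The regions of libraries 26 and 14 alone had a median length of 824 bp, against 2149 bp for those common to all 6. On the rest of Z, 753 of 3229 regions (23.3%) were common to all and 443 (13.7%) were those of libraries 26 and 14 alone. Shares outside Z were not computed. Libraries 26 and 14 were set apart by their higher Z cover, and nearly all of the others' cover lay within theirs. Other pairs could thus hold few regions alone, and nothing is read from the contrast between pairs.

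Peaks of libraries 26 and 14 with no match in the other 4 stood lower in their lists than matched ones. In the first dense block, 558 peaks of library 26 (31.1%) and 591 of library 14 (32.8%) overlapped no peak of the other 4 libraries by a single base. Their median scores were 168 and 172, and they stood above 42.6% and 44.8% of their lists. Peaks overlapped in all 4 others numbered 725 and 726, with median scores of 1629 and 1511, above 93.6% and 93.5% of the lists. Unmatched peaks were also narrower, with median widths of 686 and 707 bp, against 1472 and 1489.5 bp. A wider peak has more bases to overlap, and rank was not compared at equal width. The share of unmatched peaks outside distal Z was not computed, so whether the share here is high cannot be told. Some unmatched peaks were strong, up to a score of 3172 in library 26 and 2132 in library 14. Peaks that spanned several peaks of another library were 9.43 to 11.3% of the peaks of library 26 and 10.5 to 11.2% of those of library 14.

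The longest regions common to all 6 libraries lay in the tip. The longest, at 82243938 to 82270782 (26845 bp), was covered for 26571 and 26405 bp in libraries 26 and 14, against 26492, 25343, 26354 and 24466 bp in libraries 3, 4, 8 and 9. The others were 82317546 to 82335680 (18135 bp), 82202767 to 82218478 (15712 bp), 82270896 to 82286490 (15595 bp) and 82221247 to 82236356 (15110 bp). Many regions had the same high score of 3100 in a list, although scores above it occur, and ties in rank were taken by position. Of the 5 with the highest rank in their weakest list, 4 were in the tip, at 81830198 to 81838145, 81838301 to 81842145, 81842547 to 81853940 and 81854917 to 81858738. The remaining one, at 77206695 to 77212099 (5405 bp), lay in the first dense block. It was covered for 4917 and 4817 bp in libraries 26 and 14, against 4601, 4821, 4398 and 5222 bp, and it had scores of 3100 in all 6.

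Peak cover in the first dense block had an autocorrelation maximum near the same distance in all 6 lists. The lists share their sequence. In this block 96.6 to 98.4% of the cover of libraries 3, 4, 8 and 9 also lay in library 26 or 14, taken pair by pair. Close lags in the 6 lists are therefore not separate observations of spacing. The planned measure, the lag from 1 to 100 kb with the highest autocorrelation of cover over distal Z, gave the shortest lag, 1 kb, in every library, and so only showed that neighbouring bases are covered together. A further maximum between 10 and 40 kb was looked for after the curves were seen. In the first dense block it lay at 26.9 and 26.8 kb in libraries 26 and 14, against 26.3, 26.7, 26.3 and 26.6 kb in libraries 3, 4, 8 and 9. The autocorrelation there was 0.147 and 0.149 in libraries 26 and 14, against 0.0919 to 0.104, and it had fallen as low as -0.173 and -0.179, against -0.0741 to -0.0909, at shorter lags. The rise between these points was at least 0.166 in every library. In 93 other stretches of 5.2 Mb with at least 2% cover, the lowest rise over the 6 libraries had a median of 0.0155 and reached 0.0789, so none of them had so large a rise. The block had 17.7 to 46.8% cover and borders set after the profile was seen. These stretches were not matched to it in cover, so whether such a rise is unusual for dense cover was not tested. The 6 lists lay within 1 kb of each other in 25 of these 93 stretches. Nearly all of these had lags of 10 to 11.6 kb, at or near the lower limit of the search. The exceptions were 28.3 to 29.3 kb on chromosome 1 (104000001 to 109200000) and 13.5 to 14.4 kb on chromosome 2 (57200001 to 62400000). A falling curve puts a list at the lower limit. In some stretches all 6 lists lay past it, as on chromosome 24 (10.9 to 11.6 kb, lowest rise 0.0120). A short maximum lay at 3.1 kb in libraries 26 and 14, with an autocorrelation of 0.282 and 0.293, and at 3.5 to 3.6 kb in libraries 3, 4, 8 and 9, with 0.109 to 0.141. In the second dense block the maximum was less steady, at 24.0 and 25.1 kb in libraries 26 and 14, against 18.6 to 25.5 kb.

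**Figure D4:**
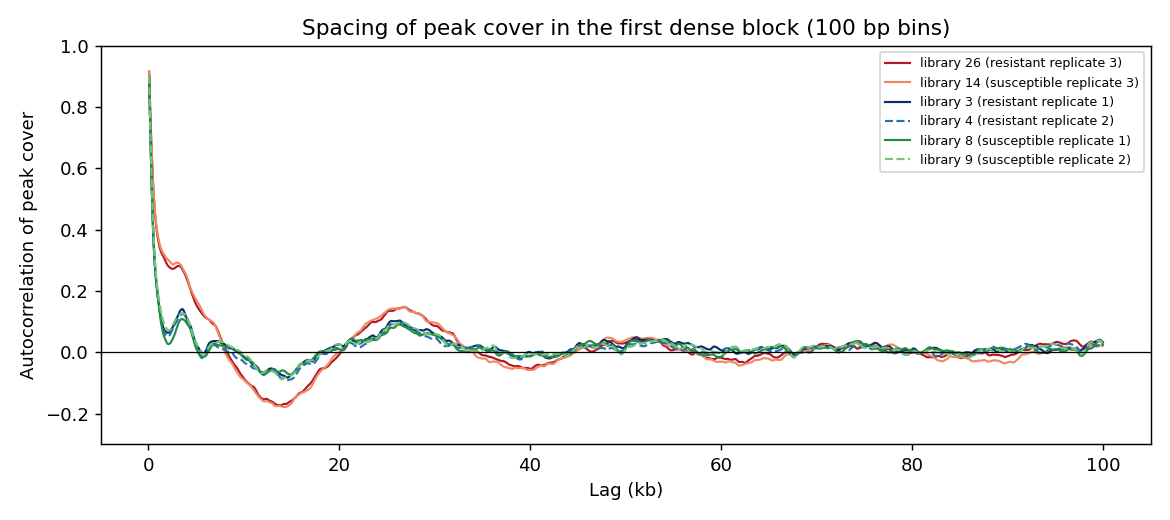
Autocorrelation of peak cover in 100 bp bins of the first dense block against lag in kb, 1 line per library. After a minimum at 12.1 to 14.6 kb all 6 curves had a maximum at 26.3 to 26.9 kb, higher in libraries 26 and 14 (0.147 and 0.149) than in the other 4 (0.0919 to 0.104).

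Peak-free stretches were spaced differently in the 2 sets of libraries. In the first dense block, library 26 had 144 and library 14 had 138 stretches of at least 5 kb without a peak, with median distances of 28.9 and 31.1 kb from one to the next. Libraries 3, 4, 8 and 9 had 244 to 253 such stretches at median distances of 19.3 to 20.5 kb. The sets were chosen on cover, and numbers and distances of peak-free stretches depend on cover. This contrast is therefore no separate result about spacing. Aligned at the ends of the 144 stretches of library 26, the last 5 kb before that point were covered for 4.55% in library 14 and for 0.101 to 0.301% in libraries 3, 4, 8 and 9, whose peaks lie almost wholly within those of library 26. From 5 to 10 kb after it, cover was 66.9% and 70.4% in libraries 26 and 14, against 26.6 to 29.5% in the others. From 15 to 20 kb it was 38.0% and 40.8% in libraries 26 and 14, against 12.1 to 14.2%, and from 20 to 25 kb 31.7% and 33.5%, against 13.6 to 14.5%. From 30 to 35 kb it was 52.4% and 55.6%, against 21.2 to 23.2%, so every list had a trough between 15 and 25 kb. The stretches were chosen on library 26, so its own values before that point are 0 by construction. With the nesting of the lists, the low values of the others, both before that point and in the trough, are no independent result.

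**Figure D5:**
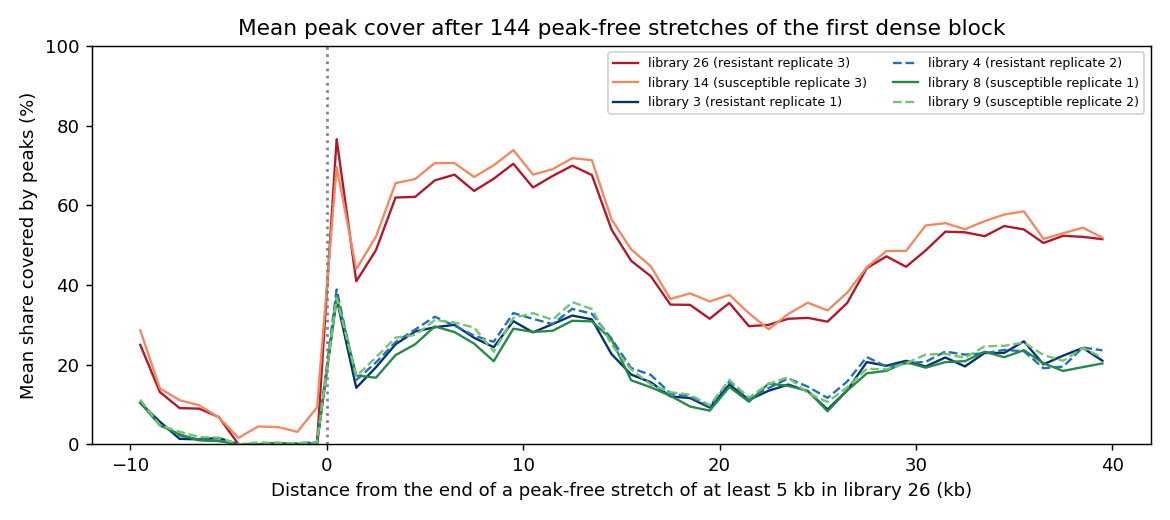
Mean share of each 1 kb covered by peaks (%) against distance from the end of a peak-free stretch of at least 5 kb in library 26, averaged over the 144 such stretches of the first dense block, 1 line per library. All 6 lines show about 15 kb of high cover, a trough from 15 to 25 kb and a further rise, with libraries 26 and 14 above the other 4 at every distance past 0.

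The comparison of resistant with susceptible birds, which the design of the study names, showed no difference on distal Z beyond the spread between all 6 libraries. Over the whole stretch, mean width was lower in the resistant libraries within each of the 2 sets of libraries, but not in every part of it. Covered length was 2104 ± 956 kb in resistant and 2138 ± 1063 kb in susceptible libraries, and peak number 1923 ± 411 and 1899 ± 481 (mean ± SD, n = 3 each). For mean width the values were 1059.6 ± 241 bp (resistant) and 1084 ± 249.5 bp (susceptible), and for the median gap 1236 ± 603 and 1312 ± 703 bp (SD, n = 3 each). Exact two-sided permutation tests gave p = 0.9 for covered length, 0.9 for peak number, 0.5 for width and 0.8 for gap, and each was 0.9 after Benjamini-Hochberg adjustment over the 4 measures. An exact permutation of 3 and 3 libraries cannot go below p = 0.1. Each group held 1 of the 2 libraries that stood apart, which sets the SDs, so the sign of a difference turned with single libraries left out. The resistant minus susceptible difference in covered length was -34.0 kb with all libraries and 579 kb without library 14. It was 252 and 232 kb without library 3 or 4, and -586, -360 and -321 kb without library 26, 8 or 9.

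Without both libraries 26 and 14, the resistant libraries 3 and 4 averaged 1552 kb and the susceptible libraries 8 and 9 averaged 1525 kb, a difference of 27.2 kb (exact permutation p = 0.667, where 2 against 2 cannot go below 0.333). Peak number averaged 1686.5 in resistant libraries 3 and 4 and 1622 in susceptible libraries 8 and 9, and the median gap 1582 and 1709 bp (exact permutation p = 0.667 for each). Mean width averaged 920.2 bp in the resistant and 939.97 bp in the susceptible libraries, with p = 0.333 in the exact permutation test, the smallest it can give. It was 925 and 916 bp in libraries 3 and 4, against 941 and 939 bp in libraries 8 and 9, and 1338 bp in library 26, against 1372 bp in library 14. The groups thus did not overlap in width within either set, and the pooled test does not use the sets. Libraries 26 and 14 are 1 library from each group, which cannot overlap, and the other 4 gave the p of 0.333 in the exact permutation test. Nothing is therefore read from this order. By parts, the order held in both sets in the sparse stretch and the second dense block only. In the first dense block mean width was 793 and 810 bp in libraries 3 and 4, against 803 and 836 bp in libraries 8 and 9. In the tip it was 3890 bp in library 26, against 2926 bp in library 14. Outside Z and W the order was that of the whole stretch, with 693 and 699 bp in libraries 3 and 4, against 726 and 717 bp in libraries 8 and 9. There it was 788 bp in library 26, against 824 bp in library 14.

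By windows, all 3 resistant libraries were above all 3 susceptible ones in 0 of 94 windows, against 4.15% of all windows, and the reverse held in 1 window, against 3.15% (7.3% in either direction). That window, from 78800001 to 78900000 in the sparse stretch, had 1.21, 0.995 and 1.18 kb in libraries 26, 3 and 4, and 1.4, 1.54 and 1.4 kb in libraries 14, 8 and 9. In the 86 windows where libraries 26 and 14, 1 from each group, were both above the other 4, no separation of the groups was possible. Among libraries 3, 4, 8 and 9, both resistant libraries were the higher in 13 of 91 windows with a peak and both susceptible ones in 11, where all windows of the genome gave 18.2% and 11.4%.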

How the data were processed

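Per the labels' protocols, DNA from frozen liver was sequenced as read pairs, with cutadapt, Bowtie2 and the build galGal4 listed in the submitters' processing notes. The authors deposited 1 peak list per MeDIP library, called on its own with MACS against its input, per the names of lists and peaks. Each peak has a deposited score, read from its values as -10 times log10 of the caller's probability, with a threshold of 1e-08. Versions and the handling of duplicate and multi-mapping reads are not stated in those notes, and depth is unknown, so a position without a peak is not one shown to be unmethylated. The 6 input libraries were not analysed here.

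Groups came from the source labels. Replicates were numbered in order of deposition, and libraries are called by the number in their titles. Cover is the length under peaks, in kb. Gaps run from a peak's end to the next start. The 5 peaks that cross 73000000 were not members, but their bases count in window cover. Positions are counted from 1. Regions were joined where peaks overlap or touch. The parts of the stretch, the lag from 10 to 40 kb and the peak-free stretches were chosen after seeing the data, and the members and other measures with earlier results of these data known. Named windows were those with the 5 highest and 5 lowest medians, the 3 highest and 3 lowest ratios, and those next to 73 Mb. Named regions were the 5 longest and the 5 highest-ranked common to all 6 lists. Groups were compared by exact permutation of libraries. Alternatives were a stricter score, equal list lengths, joined peaks, other windows, bins, borders and scaling, and libraries left out. The steps were tested on simulated lists. Python 3.11.15, numpy 2.4.6, pandas 2.3.3 and scipy 1.17.1 were used.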

Additional observations from a re-analysis of the deposited data

How the results depend on the processing

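Of 130 values recomputed under alternatives, 15 turned their sign, 21 moved and 94 did neither. For the resistant minus susceptible differences of the 4 measures only a turn of sign was counted, whatever the change in size. A covered length difference of -34.0 kb that became -586 kb without library 26 is thus among the 94, which are no measure of stability. The resistant minus susceptible differences changed sign in peak number with equal list lengths of 55599 peaks, to -26.7, in the median gap with peaks up to 500 bp apart joined, to 16.3 bp, and in covered length without libraries 26 and 14, to 27.2 kb. Leaving out 1 library gave -586 to 579 kb for covered length, -212 to 301 for peak number (negative without libraries 26, 8 or 9), -164 to 119.6 bp for mean width (positive without libraries 14, 3 or 4) and -473 to 271 bp for the gap (positive without libraries 26, 8 or 9). Windows with all resistant libraries above numbered 0 to 13 with 1 library left out (13 without library 14) and those with all susceptible libraries above 1 to 11 (11 without library 26). The susceptible count was 0 at a score of at least 160, 0 in windows of 200 kb and 2 when scaled to cover outside Z and W. The covered-length ratio of libraries 26 and 14 to the others was 2.38 at a score of at least 160, 2.15 with equal list lengths, 2.30 without the tip and 2.04 to 2.14 with 1 library left out. The peak-number ratio was 1.70 at the stricter score, 1.51 with equal list lengths and 1.051 with joined peaks. The distal ratio over that of the rest of Z was 1.09, 1.26 at the stricter score, 1.03 from 74 Mb and 1.1 with joined peaks. With the border at 74 Mb, the rest of Z also ran to 74 Mb and took in dense windows past 73 Mb. The 1.03 therefore has a different rest of Z from the 1.09, and is no measure of distal Z alone. Regions common to all 6 lists numbered 422, and those of libraries 26 and 14 alone 788, where cover of at least 50% of a region was required, and those of libraries 26 and 14 alone numbered 186 with joined peaks. The long autocorrelation maximum in the first dense block stayed at 25.7 to 27 kb in each library under the 4 alternatives run for it, and the tip ratio at 0.953 to 1.03 under its 4. These last alternatives and the value without the tip were chosen after seeing the data. The cause of these changes was not tested. No paired analysis was possible because the labels give the groups no shared numbers. Depth is unknown, so a missing peak does not show missing methylation.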
